A study of Drosophila melanogaster with 4 samples.

Results

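Sevenless and EGF receptor signalling is the receptor tyrosine kinase pathway that recruits cells into the ommatidium, the unit of the fly's compound eye. It was described through 10 listed genes: the receptor genes sev and Egfr, the ligand genes boss and spi, the ligand protease gene rho, the transduction genes drk, Sos and Ras85D, and the inhibitor genes aos and sty. A gene was found where a probe carried its symbol, and no other symbol, in GEO's annotation of the array. This gave 9 probes of 15744, for 8 of the 10 genes, among 12236 genes so named on the array. No probe carried the single symbol Ras85D or rho, so those 2 genes were not analysed here. A value on all 4 arrays was present for 8 of the 9 probes, from 7 genes, against 12847 probes in all, and boss had a value on 3 arrays.

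The study looked for mRNAs bound by dASF/SF2, an SR-family splicing factor, in the developing eye of Drosophila melanogaster. RNA was recovered with an anti-GFP antibody from larvae of the third instar, from a cross of GMR with GFP-dASF/SF2 or, as the control, with GFP-NLS, which is GFP carrying a nuclear localisation signal. GMR drives expression in the eye disc, while each extract held the anterior ends of 600 larvae and so many other tissues. Each of the 4 arrays set a GFP-dASF/SF2 immunoprecipitate against a GFP-NLS one. The 2 arrays with dASF/SF2 in Cy5 are called the Cy5 arrays, and the 2 with it in Cy3 the Cy3 arrays. The 2 arrays of a replicate number had the dyes exchanged and were taken as dye swaps, which left 2 replicates. The labels give no other allele or treatment, and nothing says that separate cultures of larvae supplied the replicates, so a p-value here covers sample-to-sample spread that could be technical.

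In this pathway a ligand brings receptor molecules together, the receptor's kinase phosphorylates its own tail, and the adaptor Drk docks there and brings Sos, which loads Ras with GTP. Ras then starts the Raf and MAP kinase cascade, which acts on transcription factors in the nucleus. Egfr is used again and again as photoreceptors, cone cells and pigment cells are recruited, whereas Sevenless is needed by the cell that becomes the R7 photoreceptor.

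The values were the authors' log ratios, of unstated logarithm base, after each array's median was subtracted, so they are unitless log ratios, and folds are not printed. The numerator of the ratio is not stated either. If the ratios are of 1 dye over the other, the Cy3 arrays must have their sign turned before averaging. If they are of 1 sample over the other, they must not, and turning them leaves a dye effect. For ratios of Cy5 over Cy3, a negative turned mean stands for less of an RNA in the dASF/SF2 immunoprecipitate than in the GFP-NLS one, relative to the median probe, and for ratios of Cy3 over Cy5 it stands for more. The files do not say which of these holds. Across the 12847 probes, which are not independent replicates, Spearman rho was 0.502 between the Cy5 arrays and 0.309 between the Cy3 arrays. Between arrays of opposite orientation it was -0.311 and -0.121 across replicates and -0.467 in replicate 2, but 0.191 in replicate 1. The replicate means had a Pearson r of 0.549 when turned and 0.160 when not. Pearson r depends on the probes used: between the arrays of replicate 2 it was -0.054 over all probes but -0.565 over the 10850 with 1 gene symbol. For the replicate means it was not computed over those alone. For every member probe both means are therefore given, a turned and an unturned one, and neither sign is assigned to the dASF/SF2 or the GFP-NLS immunoprecipitate. Other genes were chosen and ordered by their turned means, so their order holds for turned values alone. Ratios carry no level, so the presence of eye tissue could not be checked by markers. SF2, the gene of the transgene, had turned values of -0.092 and -0.245 on the Cy5 arrays (replicates 1 and 2) and -0.224 and -0.339 on the Cy3 arrays.

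The genes sev, Sos and sty lay on the negative side of all 4 turned arrays, and drk lay on the positive side of all 4. Egfr, aos and spi had turned arrays of both signs. Thus 4 of 8 probes had 1 sign on all 4 turned arrays, 3 negative and 1 positive, where all probes gave 28.1%, 16.1% negative and 12.1% positive. None of the 8 probes passed an adjusted p in limma of 0.05, and neither did any of the 12847 probes (0%). An unadjusted p under 0.05 by limma was found for 4 of the 8, 3 negative and 1 positive, against 23.2% of all probes, 13.6% negative and 9.57% positive. The median turned value of the 8 probes was 0.028, beside 0.0043 for all tested probes. Unturned, the medians were -0.082 and 0.0085. The median absolute turned value of the 8 was 0.231, beside 0.0983 for all tested probes. It lay between the values of drk (0.19) and aos (0.28), and that of aos rests on 1 array.

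**Figure D1:**
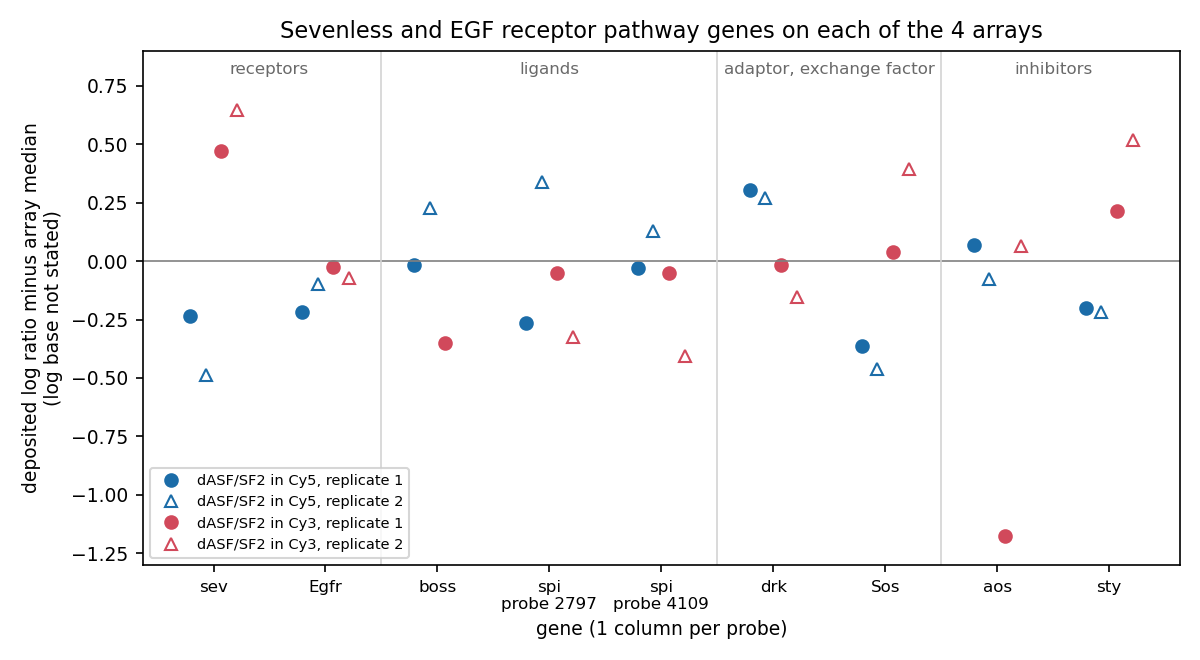
Centred log ratios (vertical axis, base not stated) of the 9 probes on each array, grouped by role; blue marks the arrays with dASF/SF2 in Cy5, red the Cy3 ones, circles replicate 1 and triangles replicate 2. For sev, Sos and sty both blue points lie below 0 and both red points above it, drk shows the opposite order, and aos has 1 point at -1.18.

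Of the receptor genes, sev changed sign with the dye swap in both replicates and Egfr did not in either. The sev gene encodes the receptor tyrosine kinase that receives the Boss signal. Its centred log ratio was -0.235 and -0.486 on the Cy5 arrays (replicates 1 and 2) and 0.470 and 0.648 on the Cy3 arrays. Both Cy5 arrays were low and both Cy3 arrays high. The turned mean of sev was -0.46 ± 0.15 (SD, n = 2), with an adjusted p in limma of 0.117. Only 105 of the 12847 probes (0.817%) had a lower turned mean, which made sev the outermost of the 8 member probes. The unturned mean was 0.099 ± 0.026, and 36.1% of all probes had an unturned mean at least as far from 0.

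Egfr, the receptor for Spitz and its relatives, was the only one of the 8 probes with 1 sign on all 4 arrays as deposited. Its values were -0.219 and -0.099 on the Cy5 arrays and -0.025 and -0.071 on the Cy3 arrays. All 4 values were small and negative, and here too both Cy5 arrays lay below both Cy3 arrays. The share of all probes with such an order of the arrays was not counted, here or for the other genes. The unturned mean of Egfr was -0.10 ± 0.03 (SD, n = 2; limma adjusted p = 0.772) and the turned mean -0.056 ± 0.059 (adjusted p = 0.657). The turned mean was 0.0055 without the Cy5 array of replicate 1, so its sign rests on that array. A single sign on all 4 unturned arrays was found for 13.6% of all probes, and 1 of the 8 is near that share. In the unturned fit 0 of the 8 probes and 0 of all probes (0%) passed an adjusted p of 0.05. In that fit 0 of the 8 reached an unadjusted p below 0.05 by limma, against 5.57% of all probes. With 1 value per gene, aos alone of the member genes had an unadjusted p under 0.05 by limma on unturned values, against 10.1% of all genes. Fitting only probes with 1 gene symbol gave 1170 of 10850 probes such a p on unturned values, against 716 of 12847 when all probes were fitted. The unadjusted counts therefore depend on the fit and on the probes in it.

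The ligand genes had arrays of both signs within an orientation or within a replicate. Boss, a large membrane protein on the R8 photoreceptor, is the ligand of Sevenless. The probe of boss had -0.017 and 0.226 on the Cy5 arrays of replicates 1 and 2, -0.350 on the Cy3 array of replicate 1, and no value on the last array. It was left out of the main test for that reason. When a probe needed only 1 array per replicate, the turned mean of boss was 0.20 ± 0.04 (SD, n = 2), with an adjusted p in limma of 0.282 over 15180 probes. Its unturned mean was 0.021 ± 0.290 (adjusted p = 0.973). Replicate 2 then rests on a single array, in which a dye effect cannot cancel.

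Spitz is the TGF-alpha-like ligand of Egfr, released from its membrane-bound form by the protease Rhomboid. Of the 2 probes of spi, probe 2797 had -0.265 and 0.340 on the Cy5 arrays (replicates 1 and 2) and -0.051 and -0.323 on the Cy3 arrays. Probe 4109 had -0.028, 0.129, -0.053 and -0.406 in the same order. On each array the probes had the same sign. On the turned scale both arrays of replicate 2 lay above both of replicate 1 for each probe, while unturned the replicates overlapped. The share of all probes with such an order was not counted. The turned mean of replicate 1 was -0.11 for probe 2797 and 0.013 for probe 4109, while that of replicate 2 was 0.33 and 0.27. Over the replicates the turned means were 0.11 ± 0.31 (SD, n = 2; limma adjusted p = 0.576) and 0.14 ± 0.18 (adjusted p = 0.375), within the spread between replicates. Both unturned means were negative, -0.075 ± 0.118 and -0.090 ± 0.069.

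The genes that pass the signal on to Ras lay on opposite sides. The drk gene encodes the adaptor, made of SH2 and SH3 domains, that links an activated receptor to Sos. Its values were 0.304 and 0.271 on the Cy5 arrays and -0.016 and -0.154 on the Cy3 arrays. The Cy3 array of replicate 1 was close to 0. For drk the turned mean was 0.19 ± 0.04 (SD, n = 2), with an adjusted p in limma of 0.189, and 9.72% of all probes had a higher one. It was 0.11 without the Cy5 array of replicate 1. The unturned mean of drk was 0.10 ± 0.06 (limma adjusted p = 0.777), and 35.4% of all probes had one at least as far from 0.

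Sos, the exchange factor that loads Ras with GTP, had -0.362 and -0.460 on the Cy5 arrays and 0.039 and 0.394 on the Cy3 arrays. Both Cy5 arrays were low, and the Cy3 array of replicate 1 was only just above 0. The turned mean of Sos was -0.31 ± 0.16 (SD, n = 2; limma adjusted p = 0.126), and 3.83% of all probes lay below it. The unturned mean was -0.097 ± 0.091.

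Of the inhibitors, sty encodes Sprouty, an intracellular inhibitor of receptor tyrosine kinase signalling that the pathway itself induces. Its values were -0.200 and -0.218 on the Cy5 arrays and 0.213 and 0.518 on the Cy3 arrays. The sign changed with the dye swap in both replicates, and 3 of the 4 arrays were at nearly the same distance from 0. For sty the turned mean was -0.29 ± 0.11 (SD, n = 2; limma adjusted p = 0.126), with 5.06% of all probes below it, and the unturned mean was 0.078 ± 0.101.

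The other inhibitor, aos, encodes Argos, a secreted protein that binds Spitz and keeps it from the receptor. Its values were 0.068 and -0.078 on the Cy5 arrays and -1.178 and 0.065 on the Cy3 arrays. One array, the Cy3 array of replicate 1, stood far from the other 3, and only 0.148% of all probes had a lower value on it. The turned mean of aos was 0.28 ± 0.49 (SD, n = 2; limma adjusted p = 0.348) and the unturned mean -0.28 ± 0.39 (adjusted p = 0.752). Without that array the turned mean was -0.0018 and the unturned mean 0.031, so the position of aos rests on it.

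**Figure D2:**
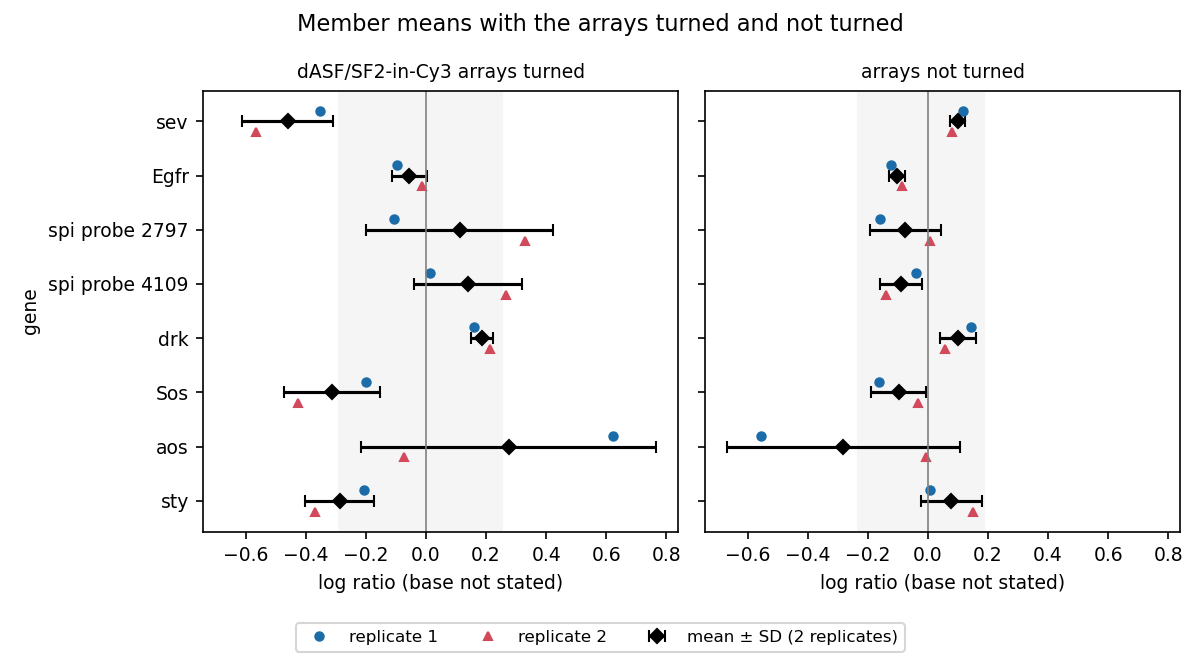
Means of the 8 probes that no array lacked, with the Cy3 arrays turned (left) and with no array turned (right); diamonds with bars are mean ± SD over 2 replicates, coloured points the replicates, and the grey band spans the 5th to the 95th percentile of all 12847 probes. On the left sev, at -0.46, and Sos, at -0.31, lie below the band and aos above it, with sty at -0.29 on its lower edge; on the right only aos lies outside it.

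The sign of a probe could also be read within each dye-swapped pair. In replicate 2 the arrays of a pair had opposite signs for 7 of the 8 probes, all but Egfr, against 67.3% of all probes. In replicate 1 they did so for 5 of the 8, against 44.9% of all probes. Both shares lay above those of all probes, but 8 probes are few.

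**Figure D3:**
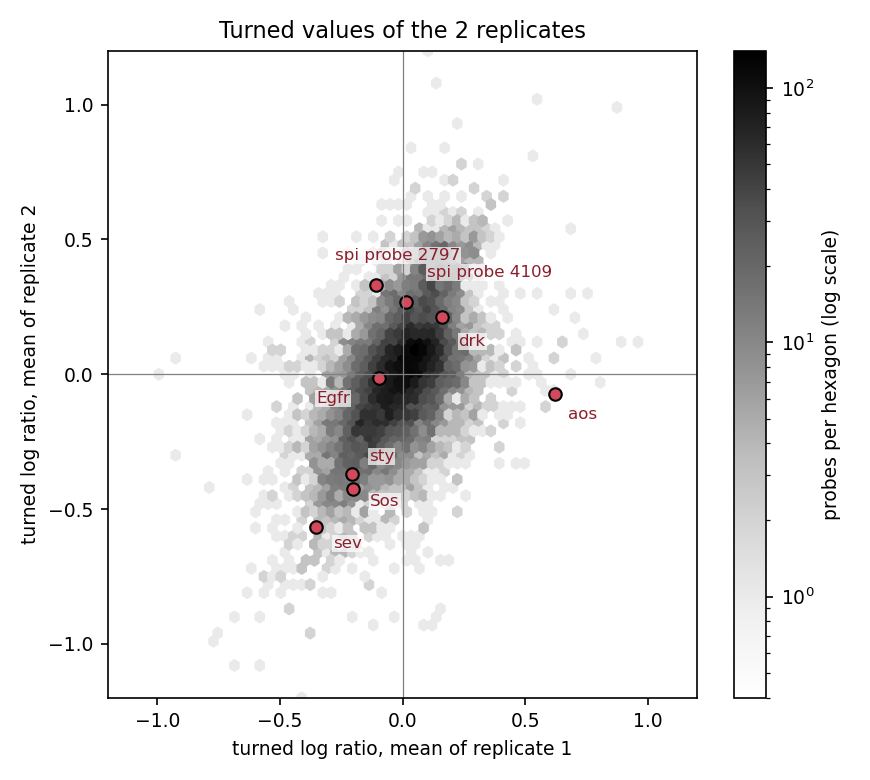
Turned mean of replicate 1 (horizontal axis) against that of replicate 2 (vertical axis) for the tested probes, shaded by number on a log scale, with the 8 member probes in red; 4 probes lie beyond the axes. The genes sev, Sos and sty lie in the lower left, drk in the upper right, both spi probes above 0 in replicate 2 but at -0.11 and 0.013 in replicate 1, and aos far to the right at 0.62 and -0.072.

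With the replicate number as a block on the 4 arrays, 3 of the 8 member probes passed, against 8.71% of all probes. Their adjusted p-values in limma with the replicate block were 0.0332 for sev, 0.0439 for Sos and 0.0409 for sty, and that of drk was 0.0740. The within-block correlation was estimated as -0.408, which shrinks the standard errors below those of independent arrays, so these 3 calls rest on that estimate. Without the Cy5 array of replicate 1, sev had a turned mean of -0.52 and an adjusted p in limma of 0.0267, and 184 of 13074 probes passed. That fit leaves replicate 1 as a single array, and without the other arrays in turn the adjusted p of sev in limma was between 0.122 and 0.402.

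The genes whose 4 centred values were most like those of sev were Ufd4, which encodes a ubiquitin ligase, CG3502 and CG7953. Their Euclidean distances from sev over the 4 arrays were 0.107, 0.113 and 0.115, among 10352 genes compared. Among the members, sty was the nearest to sev at a distance of 0.395, with 218 genes nearer, followed by Sos at 0.517, with 558 genes nearer. Egfr came next at 0.955, with 4310 genes nearer, and drk, spi and aos lay at 1.32 to 1.82. With 4 arrays and so many genes, such likeness is a description only.

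Other genes of the pathway, together with other receptor tyrosine kinases (15 of the genes on all 4 arrays), were described through 5 lists. The lists were chosen with earlier results of these data known, using 1 value per gene. Their 82 symbols, older and newer names of a gene counted apart, gave 58 genes with a probe and 56 on all 4 arrays. Of the 56 genes, 30 had negative and 26 positive turned means, where all 10353 genes gave 5144 negative and 5209 positive. The sign counts of single lists, each of few genes, are read against that split. The median of the 56 genes was -0.0080, beside 0.0010 for all genes. The unturned medians were 0.042 and 0.014. None passed an adjusted p in limma of 0.05, against 0.029% of all genes. An unadjusted p under 0.05 was found for 11 negative and 8 positive genes, where all genes gave 24.1%, and 9 negative and 9 positive genes had 1 sign on all 4 turned arrays, where all genes gave 29.5%.

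Among ligands and their processing, 3 genes were measured, all with positive turned means and a median of 0.082 (unturned 0.030). These were grk, the Egfr ligand of oogenesis, at 0.22 ± 0.17 (SD, n = 2), Krn, a relative of Spitz, at 0.082 ± 0.121, and S, which encodes Star, an escort of Spitz to its protease, at 0.026 ± 0.075. In the cytoplasmic cascade 9 of 12 genes had negative turned means, with a median of -0.12 (unturned 0.025). The largest turned values were those of ave, a partner of the scaffold Cnk, at 0.36 ± 0.18, Sur-8, a scaffold between Ras and Raf, at -0.29 ± 0.05, and csw, the SHP2-type phosphatase that acts in Sevenless signalling, at 0.28 ± 0.15. The unturned means of these 3 genes were -0.044, 0.13 and 0.081.

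Inhibitors and feedback genes had negative turned means in 7 of 10 cases, with a median of -0.068 (unturned 0.055). The largest turned value of this list was that of kek1, a transmembrane protein that binds Egfr and restrains it, with -0.314 and -0.364 on the Cy5 arrays and 0.267 and 0.689 on the Cy3 arrays. The turned mean of kek1 was -0.41 ± 0.17 (SD, n = 2; limma adjusted p = 0.0689 in the fit with 1 value per gene). In that same fit the adjusted p in limma was 0.0681 for sev and 0.0863 for sty. Unturned, the mean of kek1 was 0.070 ± 0.132 (adjusted p = 0.820), and the largest of the list was then that of Asap, at -0.14. On the turned scale Asap, an Arf GTPase-activating protein gene, followed at -0.19 ± 0.14 and edl, which encodes an antagonist of the repressor Yan, at 0.15 ± 0.06. Cbl (0.030), PTP-ER (-0.011) and Mkp3 (0.0028), named after their values were seen, had turned means close to 0.

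Nuclear effectors and targets had turned means of both signs, 7 negative and 9 positive of 16, with a median of 0.031 (unturned 0.089). The transcription factor gene salr had the lowest turned mean, -0.42 ± 0.24 (SD, n = 2), and Jra, the fly Jun, and lz, the Runx factor of the eye, had 0.34 ± 0.22 and 0.27 ± 0.15. Unturned, salr had -0.027 and Jra -0.0075, and the lowest was phyl, the adaptor gene of Sina, at -0.19, named after its value was seen. Other receptor tyrosine kinases were likewise divided, 7 negative and 8 positive of 15, with a median of 0.034 (unturned 0.0013). Pvr, the receptor related to those of PDGF and VEGF, had -0.26 ± 0.01, Tie had -0.22 ± 0.05, and drl, a Ryk-family receptor of axon guidance, had 0.20 ± 0.02. An unadjusted p under 0.05 by limma on turned values was found for 1 ligand gene, 6 cascade genes, 2 inhibitors, 6 nuclear genes and 4 other receptors, read against the 24.1% of all genes. With the arrays not turned, 4 of the 56 genes reached an unadjusted p below 0.05 by limma, against 10.1% of all genes. They were ksr (-0.19) and Tie (-0.23) on the negative side and cic (0.19) and svp (0.22) on the positive side, named after their values were seen.

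**Figure D4:**
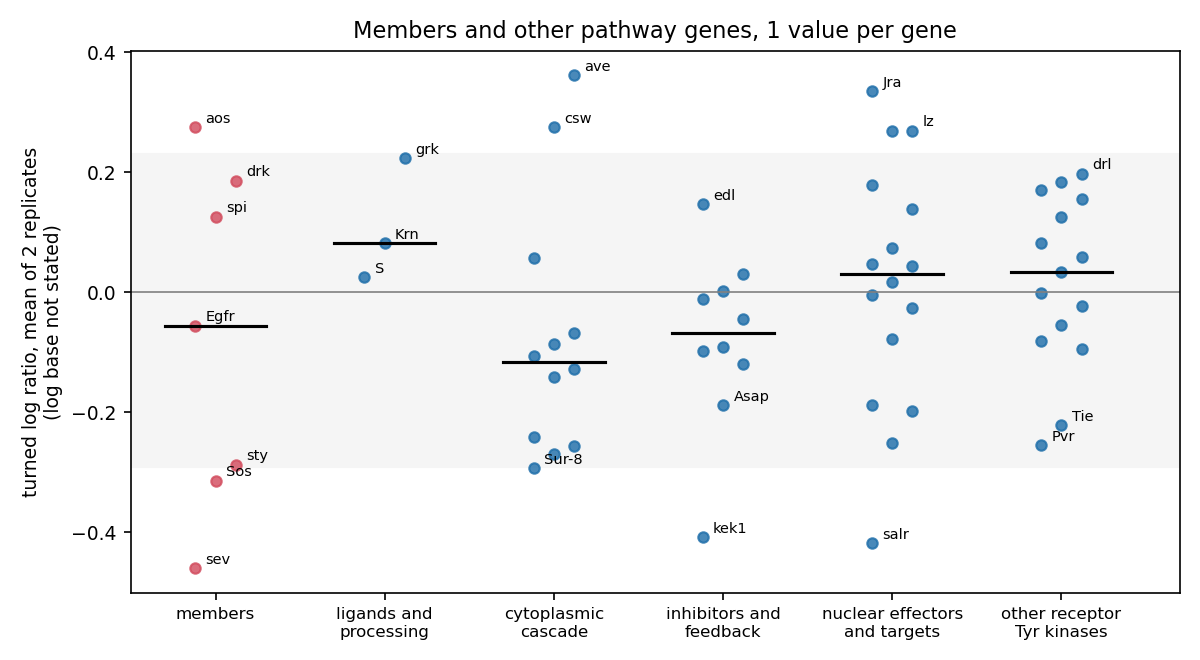
Turned means (vertical axis, log-ratio units), 1 point per gene. The 7 member genes are in red and the 56 genes of the lists, other receptor tyrosine kinases included, in blue. Black lines mark each list's median, and the grey band spans the 5th to 95th percentile of all genes. Points lie on both sides of 0 in each set but the ligands, and sev, kek1 and salr lie lowest.

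Markers of tissues in the anterior end had turned means of similar size. The 5 glia markers had turned means from 0.20 to 0.36, on the side of drk, whereas the 3 muscle markers lay from -0.35 to -0.10 and the 3 fat body markers from -0.35 to -0.14, on the side of sev, Sos and sty. Of 4 haemocyte markers 2 were negative, of 4 salivary gland markers 3 were negative, and of 6 eye markers 2 were negative, with medians of 0.13, -0.12 and 0.060. These sides hold for turned values: the unturned medians were -0.019 for glia, 0.043 for muscle, -0.022 for fat body, 0.056 for haemocytes, -0.20 for salivary gland and 0.027 for eye markers. The values are ratios of immunoprecipitates from extracts pooled from many tissues. Cell numbers, RNA per cell, recovery in the immunoprecipitate and a dye effect cannot be told apart in them. Whether tissue differences have a part in the values of the members was not tested.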

How the data were processed

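The authors' deposited values were 1 score per probe and array, a log ratio of 2 channels whose base, numerator, normalisation, background correction, software and genome build are, beyond this, not given in the sources used. A value of -10000 was read as missing. Column medians lay between 0 and 0.013, and 13815 to 15330 probes were measured per array. The Cy3 array of replicate 2 differed from the rest. It held 811 exact zeros and 72 cells of -10000, where no other array had more than 35 zeros or 1 such cell. Its SD over probes was 0.342, against 0.247 to 0.269 on the other arrays. No scanner signals were used, so detection and saturation remain unexamined, and precision is limited by the number of arrays. Probe sequences were not used here.

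The median of each array was subtracted, and the arrays of a replicate were averaged, with and without turning the sign of the Cy3 arrays. limma's moderated test (version 3.58.1, R 4.3.3) then compared the replicate mean with 0, over the 12847 probes that no array lacked, and p-values were adjusted by Benjamini-Hochberg at a threshold of 0.05. The pairing of arrays comes from the labels, which call the arrays of a replicate number dye swaps. For lists, the probes of a symbol were averaged over 10353 genes. Probe symbols came from GEO's platform annotation. All 9 member probes matched the same RefSeq symbol by Entrez identifier (Release 6 plus ISO1 MT).

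Every member gene is named, with up to 3 genes of each list by largest absolute turned mean, the 3 genes nearest sev, and SF2. The members and lists were chosen with earlier results of these data known. The fit was run on simulated data with a common spread and no dye effect, as a check of the code only. Alternatives were other centring, scaling, handling of missing values and zeros, 1 value per gene, other fits on the 4 arrays and leaving out each array. Figures used matplotlib 3.10.9 and Python 3.11.15.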

Additional observations from a re-analysis of the deposited data

Results flagged for a closer look

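For 2 of the 8 member probes, 1 of the 4 turned arrays stood apart by more than Dixon's 95% critical value for 4 values. Chance flags about 1 in 20 such groups, and 5.47% of all tested probes were flagged in the same way. The turned value of aos was 1.178 on the Cy3 array of replicate 1, beside 0.068, -0.078 and -0.065 on the others. The turned value of sty was -0.518 on the Cy3 array of replicate 2, beside -0.200, -0.218 and -0.213. The turned mean of sty was -0.21 without that array.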

How the results depend on the processing

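The count of probes past the threshold with the arrays turned was 0, and it was 3 with exact zeros read as missing, 3 with 1 value per gene, 1119 with the replicate block, and from 0 to 184 when 1 array was left out. The count was 184 without the Cy5 array of replicate 1 and 66 without the Cy3 array of replicate 1. With the arrays not turned the count was 0, and 1 when only probes with 1 gene symbol were fitted. The replicate block changed the calls of sev, Sos and sty and of no other member probe. The members' median turned value of 0.028 was 0.11 with boss added (a value on at least 1 array of each replicate), -0.056 with 1 value per gene, and from -0.059 to 0.071 when 1 array was left out.

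Without 1 array in turn, the turned mean ranged from -0.12 to 0.0055 for Egfr and from -0.0018 to 0.55 for aos, and so changed sign. The unturned mean ranged from -0.18 to 0.38 for sev, from -0.31 to 0.12 for Sos, from -0.11 to 0.26 for sty, from -0.0050 to 0.21 for drk, from -0.59 to 0.031 for aos, and from -0.24 to 0.091 and from -0.22 to 0.044 for probes 2797 and 4109 of spi. The turned means of sev, Sos, sty, drk and both spi probes kept their sign under every alternative run, though without 1 array those of spi ranged from 0.033 to 0.19 (probe 2797) and from 0.071 to 0.21 (probe 4109). Intensity over background was not analysed here, so it is unknown which of these probes were dim.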
